A study of Mus musculus and Homo sapiens with 9 samples.

Results

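The genes described here encode the RUNX transcription factors and the proteins that form the core-binding factor and ETO corepressor complexes with them: RUNX1, RUNX2, RUNX3, CBFB, RUNX1T1, CBFA2T2 and CBFA2T3. They were taken by gene symbol, with earlier results of these data known. All 7 had a row among the 64252 rows of the human count table and, as mouse orthologues, among the 43432 rows of the mouse table. RNA-seq had been performed on J.gamma1 cells, T-ALL cells derived from Jurkat that lack phospholipase C gamma 1, carrying a control short hairpin RNA (sh-NC, 2 libraries) or a short hairpin RNA against IRF2BP2 (sh-IRF2BP2, 2 libraries). It had also been performed on CD3+ T cells sorted magnetically from mouse spleen, with 2 libraries from Vav-iCre+/-;Irf2bp2 fl/fl mice (knockout) and 3 from controls. Mouse controls are labelled wild type, but the methods give their genotype as Vav-iCre-/-;Irf2bp2 fl/fl, so that the floxed alleles are shared by both groups. Vav-iCre is active throughout the blood lineage, and the deletion was thus not limited to T cells. Mice of these genotypes were analysed at 6 weeks of age, and no separate age is given for those sequenced. Which hairpin the sequenced J.gamma1 cells carried is not given in the sources used here.

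RUNX proteins are the DNA-binding alpha subunits of core-binding factor, and all of them recognise the same short motif. CBFB, the beta subunit, touches no DNA itself but binds the RUNX proteins, raises their affinity for DNA and protects them from degradation. The ETO family (RUNX1T1, CBFA2T2 and CBFA2T3) consists of corepressors that bring histone deacetylase complexes to transcription factors, and RUNX1T1 is best known as the fusion partner of RUNX1 in acute myeloid leukemia. In T cells, RUNX1 is required early in thymic development, RUNX3 silences CD4 in the CD8 lineage and supports cytotoxic genes, and CBFA2T3 is found in complexes with TAL1, E proteins and LMO2.

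The targeted gene was examined first. IRF2BP2 (ENSG00000168264) measured 204 and 199 CPM (counts relative to the library total, on library sizes scaled by TMM) with sh-NC and 79.0 and 93.8 CPM with sh-IRF2BP2. In the mouse, Irf2bp2 (ENSMUSG00000051495) was counted 4145, 4594 and 1915 times in controls and 0 times in either knockout library. The libraries thus followed their labels in both tables. Total counts ranged from 26648204 to 31120236 in J.gamma1 cells and from 16668577 to 37177523 in the mouse, where control replicate 3 was the shallowest library. All 12 T cell markers examined were detected in both cell types. In J.gamma1 cells the globin genes HBB and HBD and the heme synthesis gene ALAS2 were at 0. The alpha globin gene HBA2 was called higher at a level under 1 CPM (0.154 and 0.193 CPM with sh-NC, 0.893 and 0.848 CPM with sh-IRF2BP2, adjusted p = 0.0452 from edgeR), and its near-identical copy HBA1, with which it may share reads, differed by 2.24 on the log2 scale but was not called (adjusted p = 0.0583 from edgeR). The 12 erythroid markers together summed to 8.57 and 12.8 CPM with sh-NC and to 11.1 and 14.7 CPM with sh-IRF2BP2, and the 9 myeloid markers summed to at most 1.41 CPM in any library. The sum of 8 B cell markers ranged from 66.9 to 83.3 CPM with sh-NC and from 33.5 to 36.1 CPM with sh-IRF2BP2, and that of 6 NK cell markers, EOMES among them, from 38.7 to 40.6 and from 129 to 138 CPM. Of these markers, MS4A1 (B cell list), NCR1 and KLRK1 (NK cell list) were at 0 in every J.gamma1 library, but others were detected. In the B cell list, CD79A was called lower (-2.07 on the log2 scale, adjusted p = 0.00145 from edgeR). In the NK cell list, GZMA was called lower (-0.69, adjusted p = 0.0249 from edgeR) and EOMES higher (3.32, adjusted p = 0.000101 from edgeR). These markers are named after their values were seen. In the mouse the 11 erythroid markers summed to 2260, 1270 and 596 CPM in controls and to 4450 and 6260 CPM in knockout libraries, and 5 of them were significantly higher. Nothing in the labels says that the libraries of a group came from separate cultures or animals, so p-values measure the spread between these libraries only.

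Letters of the promoters are shown first, since the RUNX genes carry the motif that their own products bind. The motif TGTGGT, or its reverse complement ACCACA, was searched on both strands in windows from 250 bases before to 50 bases after each annotated start. The windows below are from hg38 and run 5′ to 3′ on the strand of the gene, with each match in capitals. That of RUNX1 is at chr21:35049253-35049552 (minus strand), that of RUNX2 at chr6:45328080-45328379 (plus strand) and that of the upstream start of RUNX3 at chr1:24964961-24965260 (minus strand).
RUNX1 canonical start: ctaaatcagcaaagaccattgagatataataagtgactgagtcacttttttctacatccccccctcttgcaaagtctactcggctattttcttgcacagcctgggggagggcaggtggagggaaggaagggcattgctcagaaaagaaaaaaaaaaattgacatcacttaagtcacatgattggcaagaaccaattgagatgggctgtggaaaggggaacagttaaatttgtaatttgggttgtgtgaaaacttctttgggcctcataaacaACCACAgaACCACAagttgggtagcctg
RUNX2 canonical start: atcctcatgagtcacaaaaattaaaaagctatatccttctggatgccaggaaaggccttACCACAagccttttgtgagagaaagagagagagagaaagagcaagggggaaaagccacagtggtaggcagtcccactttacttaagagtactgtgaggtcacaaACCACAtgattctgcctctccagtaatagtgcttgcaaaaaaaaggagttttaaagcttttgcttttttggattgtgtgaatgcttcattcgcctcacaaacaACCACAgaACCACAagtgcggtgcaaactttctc
RUNX3 upstream start: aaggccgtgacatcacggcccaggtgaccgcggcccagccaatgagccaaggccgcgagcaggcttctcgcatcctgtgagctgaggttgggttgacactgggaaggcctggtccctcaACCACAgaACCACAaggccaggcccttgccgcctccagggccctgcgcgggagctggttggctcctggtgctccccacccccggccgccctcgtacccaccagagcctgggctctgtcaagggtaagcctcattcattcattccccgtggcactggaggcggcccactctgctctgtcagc

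RUNX1 had 2 matches and RUNX2 had 4 in the window of the canonical start. Of 20046 human promoters, 10.7% held at least 1 match, 0.983% at least 2, and 2 promoters (0.00998%) at least 4. The canonical start of RUNX3 had no match, whereas its upstream start had 2. Over all annotated protein-coding starts, a match was found at 3 of 5 for RUNX1, 3 of 6 for RUNX2 and 1 of 2 for RUNX3. In all 3 genes the same 18 bases, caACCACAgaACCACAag, held a pair of matches 2 bases apart. This stretch was found by comparing these windows with each other after they had been read, and RUNX1 and RUNX2 were the 2 promoters that held it among the 20046 canonical windows. In RUNX1 it spanned positions 21 to 38 and in RUNX2 positions 15 to 32 downstream of the start, and in RUNX3 it lay at -133 to -116. No match was found at any annotated protein-coding start of CBFB (2 starts), CBFA2T3 (2) or CBFA2T2 (7).

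The mouse windows, taken from RefSeq (GRCm38.p6), had the same layout. Runx1 and Runx3 each had 2 matches at their upstream start and none at the downstream start, and Runx2 had 3. Cbfb, Cbfa2t2 and Cbfa2t3 had none, against 16.8% of 32851 mouse promoters with at least 1 match and 1.81% with at least 2. Over all genes tested in J.gamma1 cells, 7.83% of the 1137 with at least 1 match were significantly higher and 6.07% were lower, against 6.84% and 6.29% of the 11601 genes without a match. Gene counts do not tell which start was used, so neither promoter of a RUNX gene can be credited with the values that follow.

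**Figure D1:**
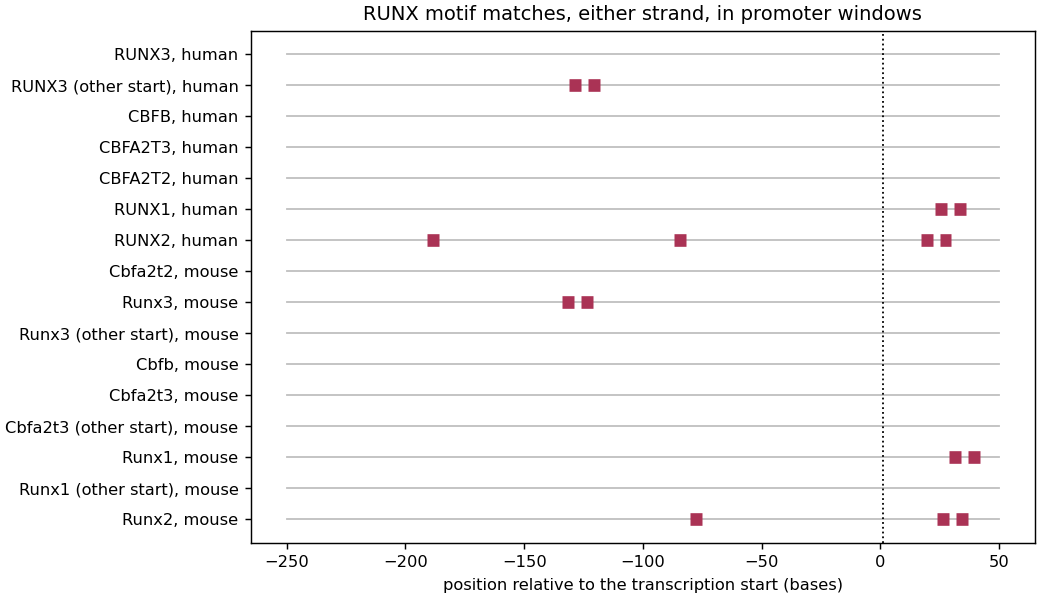
Positions of the RUNX motif (TGTGGT or ACCACA) in the promoter windows of the human and mouse genes, in bases from the annotated transcription start (dotted line). Each grey line is a window and each red mark is a match. Marks lie in some but not all windows of the RUNX genes, and in none of those of CBFB, CBFA2T2 and CBFA2T3.

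In J.gamma1 cells 2 of the 3 genes of the alpha subunit of core-binding factor were higher and the gene of its beta subunit was lower upon knockdown of IRF2BP2. RUNX1 and RUNX2 were significantly higher (1.58 and 1.97 times the control mean), whereas CBFB fell to 0.493 and the corepressor CBFA2T3 to 0.527 of the control mean. Thus 4 of the 6 genes tested, 2 higher and 2 lower, passed edgeR's quasi-likelihood test (p adjusted by Benjamini-Hochberg, under 0.05). Over all 15819 genes tested, 11.2% were called, 5.83% higher and 5.32% lower. A change of 0.5 or more on the log2 scale was also found for 10.5%, as for the 4 genes. Since the genes were chosen with earlier results of these data known, their calls are not independent of those results. All 6 genes had libraries that did not overlap between the groups, 4 higher and 2 lower, which was also so for 58.3% of all genes (29.6% higher and 28.7% lower).

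RUNX1 (ENSG00000159216, hg38 chr21:34787801-36004667) belongs to the core circuit of transcription factors around TAL1 in T-ALL cells. It measured 629 and 512 CPM with sh-NC and 946 and 856 CPM with sh-IRF2BP2. Both knockdown libraries were above both controls, and the mean rose from 571 ± 82.6 to 901 ± 63.3 CPM (SD, n = 2 each). The log2 fold change was 0.66 (standard error 0.151, 95% interval 0.31 to 1.01, adjusted p = 0.0323 from edgeR). The call was lost without sh-IRF2BP2 replicate 1 (0.56, adjusted p = 0.188) and without replicate 2 (0.73, adjusted p = 0.0684 from edgeR), in which cases the remaining library was assumed to vary like the other group. It was also lost when every gene with at least 1 count was tested (0.63, adjusted p = 0.0823 from edgeR).

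RUNX2 (ENSG00000124813, hg38 chr6:45328157-45664349), the regulator of bone formation that is also expressed in some T cell leukemias, measured 20.6 and 14.8 CPM with sh-NC and 38.5 and 31.3 CPM with sh-IRF2BP2. It was thus present at a low level, and the knockdown libraries were both above the controls. Its log2 fold change of 0.98 (standard error 0.196, 95% interval 0.53 to 1.43) had an adjusted p of 0.0199 from edgeR. With 1 library left out at a time it ranged from 0.759 to 1.24. Without sh-IRF2BP2 replicate 1 it was 0.80 (adjusted p = 0.0683 from edgeR), and with every gene of at least 1 count it was 0.95 (adjusted p = 0.0755 from edgeR). The gene SUPT3H lies across RUNX2 on the opposite strand, shares no exon bases with it and had 303 to 574 counts.

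RUNX3 (ENSG00000020633, hg38 chr1:24899511-24965121), the RUNX gene of cytotoxic T cells, measured 10.2 and 15.2 CPM with sh-NC and 21.5 and 18.6 CPM with sh-IRF2BP2. The knockdown libraries were above the controls, by a log2 fold change of the same size as that of RUNX1 (0.66, standard error 0.222, 95% interval 0.15 to 1.17). This did not pass the test (adjusted p = 0.0991 from edgeR). Its value depended on the control library: without sh-NC replicate 2 it was 0.98 and called (adjusted p = 0.00624 from edgeR), and without sh-NC replicate 1 it was 0.396 (adjusted p = 0.192 from edgeR).

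CBFB (ENSG00000067955, hg38 chr16:67028984-67101058) measured 242 and 224 CPM with sh-NC and 118 and 111 CPM with sh-IRF2BP2. The replicates of each group lay close together and far from the other group. The log2 fold change was -1.02 (standard error 0.12, 95% interval -1.30 to -0.74, adjusted p = 0.00297 from edgeR), with knockdown at 0.493 of the control mean. CBFB was called lower under all 12 alternatives tried, with values from -1.09 to -0.97.

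CBFA2T3 (ENSG00000129993, hg38 chr16:88874858-88977207), also called ETO2 or MTG16, measured 114 and 121 CPM with sh-NC and 61.5 and 62.6 CPM with sh-IRF2BP2. Here too the groups were well apart, with a log2 fold change of -0.92 (standard error 0.113, 95% interval -1.19 to -0.66, adjusted p = 0.00329 from edgeR). It was called lower under all 12 alternatives, from -0.98 to -0.88. An antisense transcript (ENSG00000259881) shares 501 exon bases with CBFA2T3 but had 3 to 10 counts, and a sense transcript within the gene (ENSG00000261226) had 28 to 81. The study itself had picked CBFB and CBFA2T3 from genes that were lower in its RNA-seq and bound by IRF2BP2. Their direction here is thus not independent evidence. The study also reported lower levels of both genes by qPCR in IRF2BP2-knockdown cells.

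CBFA2T2 (ENSG00000078699, hg38 chr20:33490075-33650036), also called MTGR1, measured 43.6 and 22.2 CPM with sh-NC and 48.5 and 50.6 CPM with sh-IRF2BP2. The controls differed from each other more than the knockdown libraries did from the higher control. The log2 fold change of 0.59 (95% interval -0.03 to 1.22, adjusted p = 0.202 from edgeR) did not pass the test, and it was called without sh-NC replicate 1 (1.15, adjusted p = 0.00011 from edgeR) but was 0.184 without sh-NC replicate 2 (adjusted p = 0.494 from edgeR). RUNX1T1 had 0 counts in all 4 libraries, where 3 counts would be 0.0964 to 0.113 CPM, and was not tested.

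**Figure D2:**
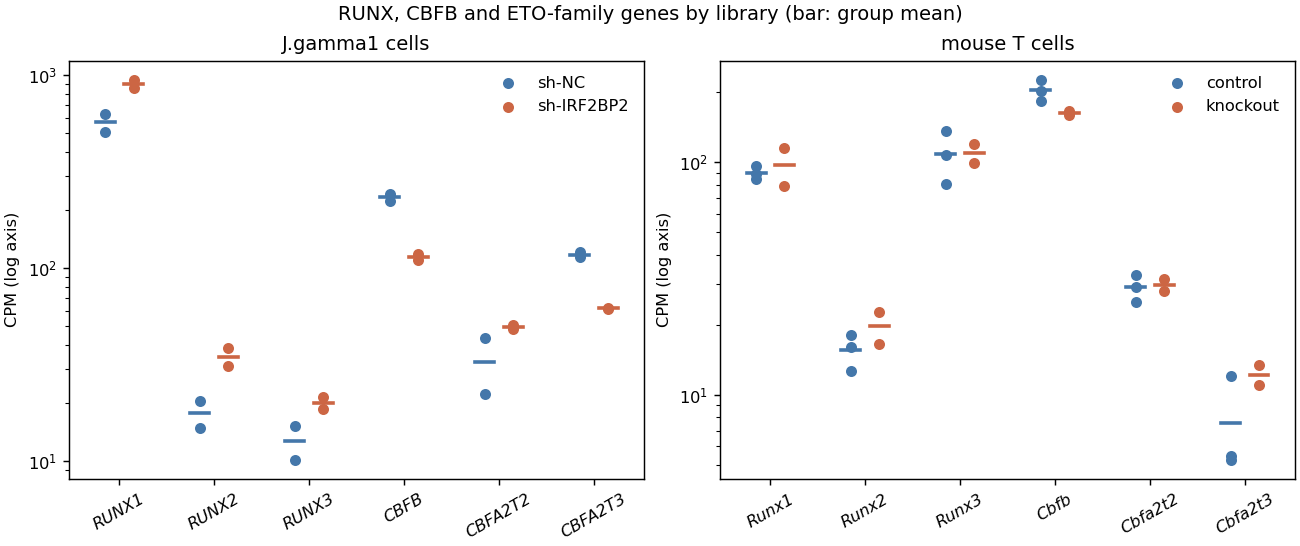
Level of each gene in each library, in CPM on a log axis, for J.gamma1 cells (left) and mouse T cells (right). Points are libraries, blue for sh-NC or control and orange for sh-IRF2BP2 or knockout, and bars are group means. In J.gamma1 cells CBFB and CBFA2T3 are lower with sh-IRF2BP2 and RUNX1 and RUNX2 are higher, whereas in the mouse most groups overlap.

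Levels were compared between genes per kilobase of merged exons. With sh-NC, CBFB was highest at 50.1 ± 2.66 CPM per kb (SD, n = 2), percentile 95.3 among the genes tested, and RUNX1 followed at 36.7 ± 5.31 (percentile 92.7). CBFA2T3 stood at 19.7 ± 0.829 CPM per kb. CBFA2T2 (3.48 ± 1.6), RUNX3 (2.57 ± 0.722) and RUNX2 (2.16 ± 0.503) did not differ beyond their spread.

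With sh-IRF2BP2 this order was turned at the top. RUNX1 was highest at 57.9 ± 4.06 CPM per kb and CBFB second at 24.7 ± 1.03 (SD, n = 2), followed by CBFA2T3 at 10.4 ± 0.128. The lengths bear on this: per kilobase of the longest coding transcript, RUNX1 (78.5 ± 11.4) and CBFB (74.3 ± 3.95) overlapped already with sh-NC, and the gap with sh-IRF2BP2 was wider (124 ± 8.7 against 36.6 ± 1.53).

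RUNX1 made up 88.4% ± 1.91 of the summed RUNX level with sh-NC and 87.5% ± 0.636 with sh-IRF2BP2 (SD, n = 2), so its share moved by less than the spread of the controls. The share of RUNX2 was 5.59% and 4.77% with sh-NC and 6.73% and 6.1% with sh-IRF2BP2, and did not overlap between the groups. Levels did not overlap for 58.3% of all genes either, and this share was not tested. The share of RUNX3 was 4.59% and 8.16% with sh-NC against 6.26% and 6.02% with sh-IRF2BP2. The summed RUNX level was 45 and 37.8 CPM per kb with sh-NC and 69.8 and 62.6 with sh-IRF2BP2. CBFB relative to this sum was 1.16 and 1.28 in the controls and 0.364 and 0.383 after knockdown. The ratio after knockdown was thus 0.306 of that in controls, and 0.308 with transcript lengths. It joins the falls and rises given above and was not tested on its own.

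**Figure D3:**
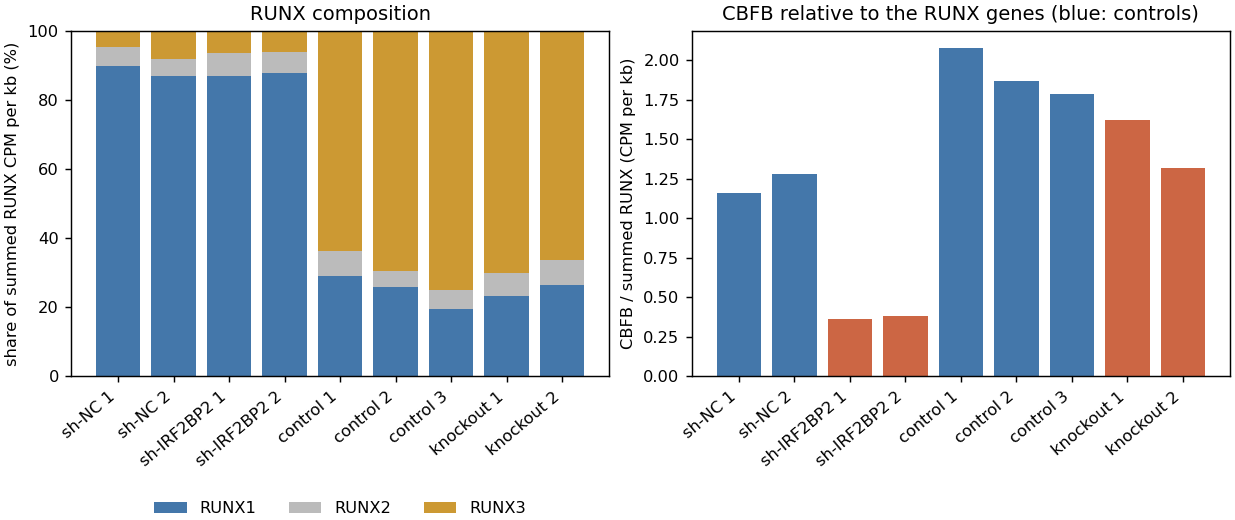
Left, share of RUNX1, RUNX2 and RUNX3 in their summed level (CPM per kb of merged exons, percent) in each library. Right, CBFB divided by that sum, blue for control libraries and orange for sh-IRF2BP2 or knockout. RUNX1 dominates in J.gamma1 cells and RUNX3 in mouse T cells, and the ratio is 0.364 and 0.383 in the sh-IRF2BP2 libraries against 1.16 and 1.28 with sh-NC.

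The 3′ untranslated regions were searched for the word GGTCTA, which earlier results of these libraries had singled out. CBFB held it once, at bases 108 to 113 of the 2280 bases of its canonical 3′ untranslated region (ENST00000412916), shown here with the word in capitals.
CBFB site: tggaggtactacGGTCTAtttctcaacctt
RUNX1 held the word once and RUNX2 held it 2 times, and both genes were called higher. RUNX3, CBFA2T2 and CBFA2T3 had none in this region, and of these CBFA2T3 was called lower. Of the 2017 genes tested with the word, 14.8% were significantly lower, against 4.72% of the 10535 without it. The word had been singled out in these same libraries, so these shares are not independent evidence. Differences between the classes in the length of this region were not accounted for. Among the 915 genes with GGTCTA but neither GGTCTAA nor AGGTCTA, the class of CBFB, RUNX1 and RUNX2, 9.29% were lower and 7.32% higher. The part of this word in the fall of CBFB was not tested.

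For each called gene, the 3 tested genes of at least 10 CPM with the closest profile were looked up among 9755 genes, by the Euclidean distance of centred log2 CPM over the 4 libraries. RUNX1 was nearest to TTYH2 (0.0146), SOAT1 (0.0159) and LMBR1 (0.027). CBFB was nearest to DIXDC1 (0.0319), RAVER2 (0.0644) and TMEM135 (0.065), and CBFA2T3 to PABPN1 (0.0268), SIVA1 (0.0455) and TK2 (0.0535). The neighbours of RUNX2 were MTF1 (0.0342), FAM13B (0.0691) and SH3BP5-AS1 (0.0828). With 4 libraries these distances mainly restate the size of the change.

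In mouse T cells, none of the core-binding factor genes was called after loss of Irf2bp2, and only Cbfb had groups that did not overlap. Of the 6 genes tested, 0 were called by edgeR after Benjamini-Hochberg adjustment, 0 had an unadjusted p under 0.05 and 0 were called by DESeq2. Over all 15350 genes tested, 2.83% were called, 2.68% higher and 0.15% lower (2.58% with a change of 1 or more on the log2 scale), and 36% had groups that did not overlap. The intervals show how large a change these libraries could have missed.

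Runx1 (ENSMUSG00000022952, mm10 chr16:92601466-92826149) measured 89.1, 95.7 and 84.3 CPM in controls and 79.2 and 115 CPM in the knockout, so that the knockout libraries lay on both sides of the controls. The log2 fold change was 0.11 (95% interval -0.31 to 0.54, adjusted p = 0.825 from edgeR). Runx2 (ENSMUSG00000039153, mm10 chr17:44495987-44814797) measured 16.0, 12.7 and 18.1 CPM in controls and 16.6 and 22.7 CPM in the knockout, with a log2 fold change of 0.34 (-0.22 to 0.89, adjusted p = 0.554 from edgeR). Runx3 (ENSMUSG00000070691, mm10 chr4:135120652-135177990) measured 80.6, 107 and 136 CPM in controls and 99.4 and 119 CPM in the knockout. Both knockout libraries of Runx3 fell within the range of the controls, at a log2 fold change of 0.02 (-0.52 to 0.56, adjusted p = 0.981 from edgeR).

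Cbfb (ENSMUSG00000031885, mm10 chr8:105170674-105217989) measured 183, 201 and 225 CPM in controls and 160 and 165 CPM in the knockout. Both knockout libraries were below the 3 controls, as in J.gamma1 cells, but by less than the spread required: the log2 fold change was -0.32 (standard error 0.137, unadjusted p = 0.0516, adjusted p = 0.314 from edgeR). Its 95% interval began at -0.65 and so did not reach the value of -1.02 seen in J.gamma1 cells, although the cells, the species and the kind of IRF2BP2 loss all differed and the difference itself was not tested. Non-overlap in the lower direction was found for 17.8% of all genes. The 12 T cell markers also summed to less in the knockout (3520 and 3790 CPM) than in controls (4580, 5460 and 4520 CPM). Of these markers 0 were called and their median change was -0.43 on the log2 scale, and their part in the value of Cbfb was not tested.

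Cbfa2t3 (ENSMUSG00000006362, mm10 chr8:122625141-122699109) measured 5.43, 12 and 5.26 CPM in controls and 13.4 and 11 CPM in the knockout. Control replicate 2 thus lay between the knockout libraries, apart from the other controls. The log2 fold change was 0.68 (95% interval -0.27 to 1.64, adjusted p = 0.480 from edgeR), and without control replicate 2 it was 1.20 and called (adjusted p = 0.0462). CBFA2T3 acts in erythroid progenitors as well as in T cells, and the erythroid marker sum given above was higher in the knockout libraries, while the 9 myeloid markers summed to 408 CPM in control replicate 2 against 39.2 to 152 CPM in the other 4 libraries. The part of these cells in the values of Cbfa2t3 was not tested, and in bulk RNA fewer cells of a type and less RNA per cell cannot be told apart. A pseudogene on the same strand within Cbfa2t3, Gm15899, had 14 to 56 counts.

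Cbfa2t2 (ENSMUSG00000038533, mm10 chr2:154436481-154539356) measured 29.1, 25.0 and 32.8 CPM in controls and 27.9 and 31.4 CPM in the knockout, the latter within the range of the former, with a log2 fold change of 0.04 (95% interval -0.37 to 0.44, adjusted p = 0.951 from edgeR). Runx1t1 had 0 counts in all 5 libraries, where 3 counts would be 0.0807 to 0.18 CPM.

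**Figure D4:**
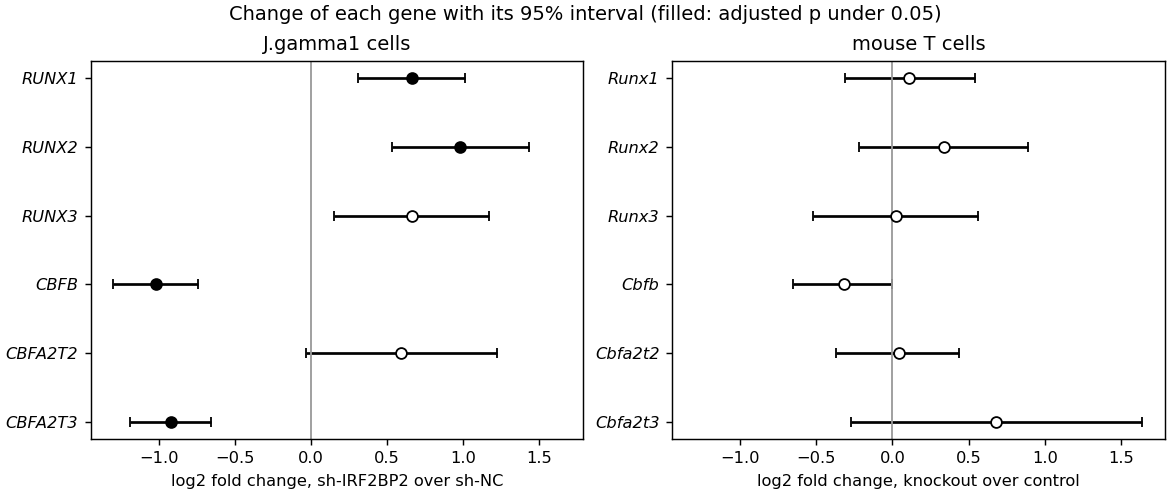
Log2 fold change of each gene tested with its 95% interval, for J.gamma1 cells (left) and mouse T cells (right), from edgeR's quasi-likelihood fits. Filled points have an adjusted p under 0.05. The 4 filled points are RUNX1, RUNX2, CBFB and CBFA2T3 in J.gamma1 cells, and every mouse interval includes 0 or ends at it.

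The RUNX family was composed differently in the mouse cells. Per kilobase of merged exons, Runx3 made up 69.3% ± 5.65 of the summed Runx level in controls (SD, n = 3) and 68.2% ± 2.69 in the knockout (SD, n = 2), and Runx1 24.8% ± 4.98 and 24.9% ± 2.4. Since the tables come from different species and annotations, these shares are given beside those of J.gamma1 cells and not tested against them. In controls the order of levels was Cbfb (58.4 ± 6.06 CPM per kb), Runx3 (21.6 ± 5.5), Runx1 (7.46 ± 0.479), Cbfa2t2 (3.35 ± 0.457), Runx2 (1.77 ± 0.311) and Cbfa2t3 (0.902 ± 0.458). The ranges of neighbours in this order did not overlap among the control libraries, and the groups of Runx2 and Cbfa2t3 came nearest to each other (1.44 to 2.05 against 0.628 to 1.43). Cbfb relative to the Runx sum was 2.08, 1.87 and 1.79 in controls and 1.62 and 1.32 in the knockout, or 0.77 of the control mean. Both knockout ratios were below the 3 controls, and levels did not overlap in the lower direction for 17.8% of all genes. The ratio joins the values of Cbfb and the Runx genes given above, none of them called, and was not tested on its own.

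The other genes of the pathway were counted from lists put together with earlier results of these data known, so their counts are not independent of those results. Of 15 coactivators and enzymes that modify RUNX proteins, 3 were significantly higher and 0 lower in J.gamma1 cells, where 5.83% of all genes tested were higher and 5.32% lower. These were the histone acetyltransferase CREBBP (log2 fold change 1.00, adjusted p = 0.0142 from edgeR), the kinase CDK6 (0.96, adjusted p = 0.0321) and the arginine methyltransferase CARM1 (0.54, adjusted p = 0.035). The median over the list was 0.46, with 12 of 15 positive, against 0.01 over all genes. In 11 of the 15 genes sh-NC replicate 2 was the lowest of the 4 libraries, which was so for 29.5% of all genes, and its part in this median was not tested. CREBBP measured 97.7 and 67.1 CPM with sh-NC and 174 and 155 CPM with sh-IRF2BP2.

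Of 17 corepressors that act with RUNX or ETO proteins, 3 were higher and 0 lower (5.83% and 5.32% of all genes), with a median of -0.01. The called genes were ZNF652, a zinc finger partner of CBFA2T3 (1.00, adjusted p = 0.0029 from edgeR), TBL1X, a subunit of the NCOR complex (0.87, adjusted p = 0.00577), and the Groucho protein TLE4 (0.61, adjusted p = 0.0229). ZNF652 measured 60.0 and 55.9 CPM with sh-NC and 113 and 120 CPM with sh-IRF2BP2, thus in the opposite direction to CBFA2T3.

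Of 19 factors that share complexes or enhancers with RUNX1 and CBFA2T3, 16 were tested, 1 was higher and 3 were lower, against 5.83% and 5.32% of all genes. ERG, an ETS factor, was lower (-1.64, adjusted p = 0.0405 from edgeR) from a low level of 3.40 and 3.09 CPM to 0.721 and 1.36 CPM. Like CBFB and CBFA2T3, ERG had been picked by the study from genes lower in its RNA-seq and bound by IRF2BP2. Its direction here is thus not independent evidence, and the study also reported lower ERG by qPCR. LMO1 (-1.33, adjusted p = 0.019) and the E protein TCF12 (-0.61, adjusted p = 0.0231) were also lower, and the ETS factor FLI1 was higher (0.71, adjusted p = 0.00917). TAL1 measured 236 and 217 CPM with sh-NC and 254 and 268 CPM with sh-IRF2BP2 (0.20, adjusted p = 0.319 from edgeR), and this gene was picked from the list after its values were seen.

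Of 24 T cell genes known to be regulated by RUNX factors, 18 were tested, of which 5 were higher and 5 lower (5.83% and 5.32% of all genes), with a median of -0.16. The T-box factor EOMES was higher by 3.32 on the log2 scale (adjusted p = 0.000101 from edgeR), from 11.8 and 11.3 CPM to 112 and 119 CPM. The recombinase genes RAG1 (-2.72, adjusted p = 0.00285) and RAG2 (-2.01, adjusted p = 0.00205) and the pre-T cell receptor gene PTCRA (-2.51, adjusted p = 0.0297) were lower. PTCRA was at a low level, with 1.24 and 2.68 CPM for sh-NC and 0.275 and 0.407 CPM for sh-IRF2BP2. RAG1 went from 60.9 and 30.2 CPM with sh-NC to 6.87 and 6.95 CPM with sh-IRF2BP2. The study had already reported lower RAG1 and RAG2 in IRF2BP2-knockdown cells, and had singled out RAG1 with the help of its RNA-seq. The direction of RAG1 here is thus not independent evidence. Beyond the rule for named genes, the other genes called higher were IL2RB, PRF1, ITGAL and IFNG, and the other genes called lower were IL7R and MYC, all named after their values were seen. IFNG had 0 counts in both sh-NC libraries and 13 and 12 with sh-IRF2BP2, at least 4.08-fold higher against 3 counts per control library, and with this bound the median of the list was still -0.16. Of 10 RUNX-regulated genes of myeloid and bone cells, 1 was tested, the protease gene CTSG, which was lower (-1.04, adjusted p = 0.00449 from edgeR). Of the 15 genes called and named in these lists, the calls of CARM1, CDK6, ERG, FLI1, PTCRA and TCF12 were lost without sh-IRF2BP2 replicate 1, those of CARM1, TCF12 and TLE4 without sh-IRF2BP2 replicate 2, and that of PTCRA without sh-NC replicate 2.

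In mouse T cells, 0 of 14 coactivators and 0 of 17 corepressors were called (2.83% of all genes), with medians of 0.30 and -0.11 against -0.02 over all genes. Of 19 partner factors 2 were higher, the erythroid regulators Tal1 (3.07, adjusted p = 0.0269 from edgeR) and Gata1 (1.97, adjusted p = 0.0349). Both rose in the libraries with the higher erythroid marker sum. Gata1 is itself part of that sum and among the erythroid markers that were significantly higher, so its rise is not independent of them. Tal1 is not in that marker list. Tal1 measured 6.83, 16.2 and 4.63 CPM in controls and 68.8 and 88.9 CPM in the knockout. The part of erythroid cells in these 2 values was not tested.

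Of the 20 RUNX-regulated T cell genes tested in the mouse, Gzmb, which encodes granzyme B, (2.47, adjusted p = 0.0196 from edgeR) and the chemokine Ccl5 (1.37, adjusted p = 0.0218) were higher and Cd8b1, which encodes the CD8 beta chain, was lower (-0.94, adjusted p = 0.0211). Over all genes tested in the mouse, 2.68% were called higher and 0.15% lower. Gzmb measured 9.15, 11.7 and 4.94 CPM in controls and 40.5 and 56.0 CPM in the knockout. Cd8b1 measured 458, 479 and 515 CPM in controls and 236 and 268 CPM in the knockout. The groups did not overlap for either gene, which was also so for 36% of all genes tested. The T cell marker sum given above was lower in the knockout libraries, and its part in the value of Cd8b1 was not tested. All 5 mouse calls in these lists were lost without control replicate 1 and without knockout replicate 2, and 4 of them without knockout replicate 1, where Ccl5 was still called. Of the 6 myeloid and bone genes tested, 0 were called.

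**Figure D5:**
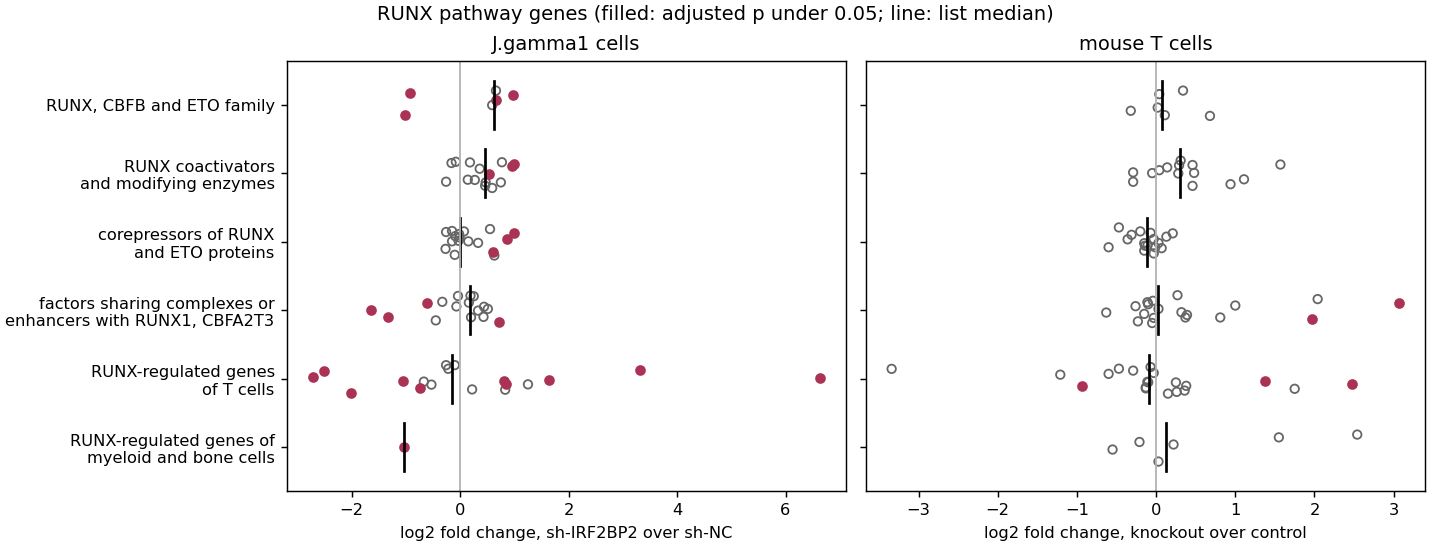
Log2 fold change of the genes tested in each list, sh-IRF2BP2 over sh-NC (left) and knockout over control (right). Each circle is a gene, filled where the adjusted p was under 0.05, and black lines are list medians. The rightmost filled circle on the left is IFNG, fitted against control libraries at 0 and so without a defined size. In J.gamma1 cells the coactivator line stands at 0.46 and the corepressor line at -0.01.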

How the data were processed

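RNA had been extracted with TRIzol and sequenced as paired-end reads. The authors aligned the reads with HISAT2 2.2.0 to hg38 or mm10, estimated abundance with StringTie and deposited counts (whole numbers for each Ensembl gene in each library), with no normalization or pooling. How coverage became counts, and whether strand was used, is not given in the sources used here, so counts divided by 2 were an alternative. Rows in GENCODE 44 (56105 of 64252) or M21 (42462 of 43432) were used and held at least 97.9% of the counts in each library. Each table was filtered with filterByExpr, scaled by TMM and tested with glmQLFit and glmQLFTest of edgeR 4.0.16 in R 4.3.3, p-values being adjusted by Benjamini-Hochberg across the genes of the table and called under 0.05. The scripts were tested on simulated data. Depth leaves a limit of 0.0807 to 0.18 CPM (3 counts, counting error only) in any library.

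Replicates differed by more than the sampling noise (chi-square per gene of at least 20.0). The study's methods name DESeq2, which was here an alternative (1.42.0), beside RLE and upper-quartile scaling, filters asking for 1 count in any library or for 10 in each, all rows, a replicate block, a fold threshold and each library left out. Levels with the length of the longest coding transcript were added after the data were seen. Scans used Python 3.11.15. The genes and lists were chosen with earlier results of these data known. Named genes were, per list, up to 4 called genes with the largest change and at least 1 CPM, the 3 nearest profiles of each called gene, and overlapping genes. Prmt1 had no row in the mouse table used, and Tle5 was read as Aes.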

Additional observations from a re-analysis of the deposited data

Results flagged for a closer look

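Of 64 pathway genes tested in both tables, 8 (12.5%) had all sh-IRF2BP2 libraries on one side of their controls and all knockout libraries on the other side, which was so for 10.9% of 9900 genes with the same symbol in both. The share is thus near that of all genes, and the difference between the comparisons was not tested for any of them. CDC20, LDB1, LEF1, MYB and PRMT6 were among the 8 and are named here after their values were seen. The values of the other 3, which the report names, follow. The corepressor TLE4 had a log2 fold change of 0.61 in J.gamma1 cells, from 60.4 and 59.4 CPM to 83.6 and 99.1 CPM, whereas Tle4 had -0.36 in mouse T cells, from 110, 94.6 and 122 CPM to 84.8 and 84.3 CPM.

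ERG had -1.64 in J.gamma1 cells, and Erg had 0.81 in mouse T cells, where it measured 0.648, 0.609 and 0.626 CPM in controls and 1.02 and 1.18 CPM in the knockout. FLI1 had 0.71, from 118 and 118 CPM to 192 and 193 CPM, and Fli1 had -0.11, from 85.1, 81.5 and 80.3 CPM to 75.9 and 76.4 CPM. Only the J.gamma1 values of these genes passed the test (adjusted p = 0.282 for Tle4, 0.439 for Erg and 0.7 for Fli1 from edgeR, adjusted by Benjamini-Hochberg).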

How the results depend on the processing

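Of 72 alternative values for the 6 tested genes in J.gamma1 cells, 63 kept direction and side of the threshold, 5 were no longer called (RUNX1 and RUNX2), 4 became called (RUNX3 and CBFA2T2) and 0 reversed. Of 78 in the mouse, 72 kept both and 1 became called (Cbfa2t3). The other 5 reversed in sign when a library was left out, with none of them called: Runx1 ranged from -0.202 (without knockout replicate 2) to 0.334, Runx3 from -0.143 (without control replicate 1, and -0.138 without knockout replicate 2) to 0.21, and Cbfa2t2 from -0.0729 (without knockout replicate 2, and -0.0432 without control replicate 2) to 0.129. Leaving out 1 library gave 0 to 3 of these genes higher and 2 lower in J.gamma1 cells (from 2 and 2), 12 to 31 pathway calls (from 21) and 837 to 3247 calls over all genes (from 1764). In the mouse it gave 0 to 1 higher, 0 to 10 pathway calls (from 5) and 7 to 659 calls over all genes (from 435), the lowest without control replicate 1. Testing every gene of at least 1 count in J.gamma1 cells left 0 of these genes higher, 8 pathway calls and 715 calls over 27082 genes instead of 15819. DESeq2 gave 11 pathway calls and 1221 calls over all genes in the mouse.

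The replicate numbers were not taken to pair the libraries: same-numbered libraries deviated together by 0.225 in J.gamma1 cells, with only 2 pairs, and by 0.151 and -0.161 in the mouse. With the replicate block, 4 of these genes were higher in J.gamma1 cells, since RUNX3 (0.68, adjusted p = 0.0335 from edgeR) and CBFA2T2 (0.67, adjusted p = 0.0352 from edgeR) were then called, with 33 pathway calls and 3547 calls over all genes. In the mouse the block gave 496 calls over all genes. The cause of these shifts was not tested. With 2 or 3 libraries a group, 2 and 3 residual degrees of freedom limit what the tests can show.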
